A study of Homo sapiens with 8 samples.

Results

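The nonspecific lethal (NSL) complex is a histone acetyltransferase assembly, and the 10 genes described here encode its subunits, including PHF20 and PHF20L1, the 2 proteins whose chromatin binding was profiled. The genes were taken by name and not by a measured value, from the 20033 protein-coding genes of GENCODE release 44 on hg38. Earlier results of these data were known when they were chosen. The data were ChIP-Seq libraries of U2OS cells, a human osteosarcoma line, made with an antibody against the hemagglutinin (HA) tag, which asks where on the genome each tagged protein sits. The PHF20 libraries (2 ChIP and 1 input) came from cells over-expressing N-3xHA PHF20. The PHF20L1 libraries (3 ChIP and 2 input) came from cells over-expressing either N-3xHA PHF20L1 (1 ChIP library and 1 input) or C-3xHA PHF20L1 (2 ChIP libraries and 1 input). All cells were therefore over-expressing a tagged protein, they had been sorted for a green fluorescent marker according to the study's methods, and the native proteins are not seen by the tag antibody. The deposited values are the start and end of each final peak, combined over replicates by the authors, with no height, score or read count, so the depth of each library is not in the files and no spread between replicates can be given. A gene without a peak is therefore one that was not called at the authors' thresholds, and low binding there is possible. The study's methods state that replicates varied in signal. Peaks of the best replicate were kept where they overlapped peaks of the other replicate or replicates. The 2 lists thus rest on unequal sets of libraries and tags, and a call in 1 list only is not a like-for-like contrast.

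KAT8, also known as MOF, is the catalytic subunit and transfers acetyl groups to histone H4. KANSL1, KANSL2 and KANSL3 build the scaffold around it, and MCRS1, WDR5, HCFC1 and OGT complete the core. WDR5 also serves in the H3K4 methyltransferase complexes, and HCFC1 in some of them. OGT is the enzyme that adds O-linked N-acetylglucosamine to nuclear proteins. PHF20 and PHF20L1 are homologous Tudor domain proteins that read methylated lysine. NSL is known for sitting at the promoters of constitutively active genes, which makes the promoters of its own subunits a natural place to look for its readers.

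PHF20 peaks were found at the promoters of 5 of the 10 genes, namely KANSL2, KANSL3, MCRS1, WDR5 and PHF20L1. The other 5, KAT8, KANSL1, HCFC1, OGT and PHF20 itself, had none. PHF20L1 peaks were found at the promoter of none of the 10 genes. Promoters were taken around the transcription start site (TSS) of every annotated transcript, with 1000 bp on the upstream and 500 bp on the downstream side, and an overlap of 1 bp sufficed. By the same rule 4148 of 20033 protein-coding genes had a PHF20 peak (20.7%, Wilson 95% interval 20.2% to 21.3%). A PHF20L1 peak was at 766 of them (3.82%, 3.57% to 4.10%), and 747 had both (3.73%). A count of 0 among 10 genes allows up to 30.0% (3 counts of 10), far above 3.82%, so 10 genes are too few to set PHF20L1 at NSL genes below its level elsewhere. The intervals and this limit cover counting error only. The 5 of 10 is a description of chosen genes and was not tested. Outside the promoters, neither list had a peak in the gene body of any of the 10 genes. Few genes gained a call this way. With promoter or gene body counted, 22.0% of all protein-coding genes had a PHF20 peak and 4.19% a PHF20L1 peak.

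**Figure D1:**
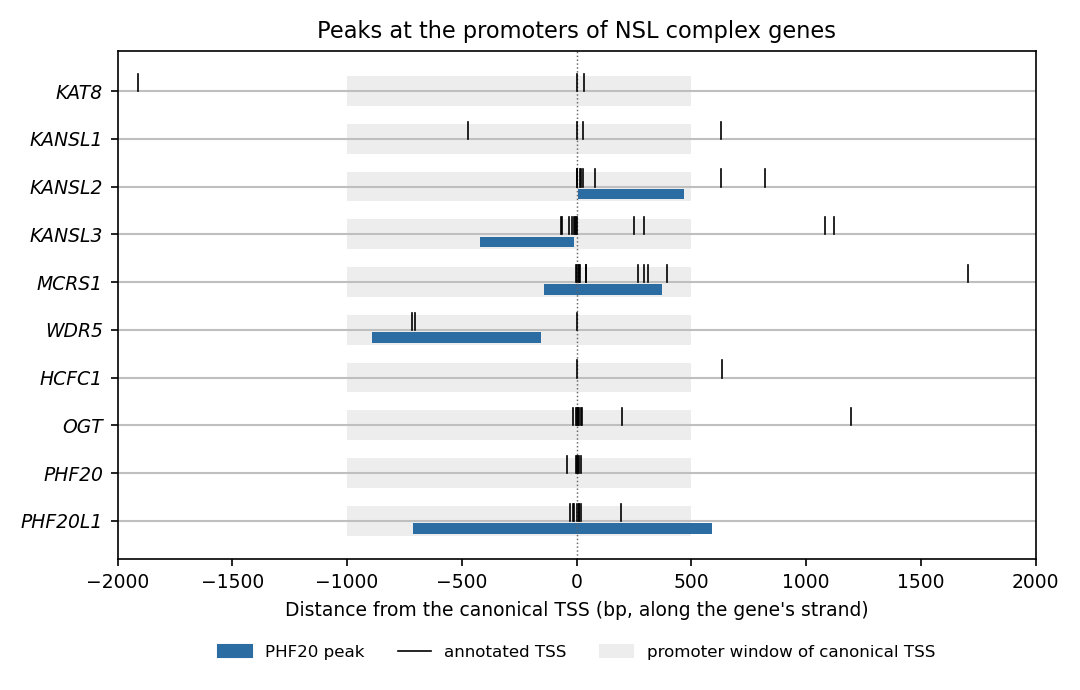
Positions of PHF20 peaks (blue bars) within 2000 bp of the canonical TSS of each NSL gene, in bp along the gene's strand, with annotated TSSs as black ticks and the promoter window of the canonical TSS in grey. The 5 peaks lie at KANSL2, KANSL3, MCRS1, WDR5 and PHF20L1, and the list of PHF20L1 peaks has none in the area drawn.

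The sequences below show stretches under the peaks of 4 bound genes, and the elements found near the TSS of PHF20 and OGT, which had no peak. They were read from hg38 on the strand of the gene, and capitals mark matches, on either strand, to ACTTCCGG (a site of ETS factors), CACGTGAC (an E-box), GCGCATGCG (the core of the NRF1 site), AAGATGGCG (the YY1 site) and GGGCGG (the GC box bound by SP factors). KANSL3 is shown from its PHF20 peak upstream of the TSSs that the peak covers (chr2:96638379-96638618, minus strand). WDR5 is shown from the 5′ end of its peak to the outermost TSS (chr9:134135189-134135364, plus strand). MCRS1 is shown from the base next to the PRPF40B start to the first bases of MCRS1 (chr12:49568130-49568217, minus strand), and KANSL2 around the YY1 match in its peak (chr12:48682166-48682194, minus strand). PHF20 around its E-box (chr20:35771994-35772023, plus strand) and OGT around its NRF1 core (chrX:71532874-71532962, plus strand) follow.
KANSL3: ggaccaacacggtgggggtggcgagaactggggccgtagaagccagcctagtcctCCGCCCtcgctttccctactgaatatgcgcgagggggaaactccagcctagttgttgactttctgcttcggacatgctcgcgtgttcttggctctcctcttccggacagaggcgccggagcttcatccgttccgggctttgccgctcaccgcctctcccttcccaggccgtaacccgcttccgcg
WDR5: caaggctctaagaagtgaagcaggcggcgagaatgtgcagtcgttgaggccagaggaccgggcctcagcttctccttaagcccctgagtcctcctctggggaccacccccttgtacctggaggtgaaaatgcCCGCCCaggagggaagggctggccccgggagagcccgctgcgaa
MCRS1: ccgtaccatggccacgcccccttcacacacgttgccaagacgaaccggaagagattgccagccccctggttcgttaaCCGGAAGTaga
KANSL2: ctcctgaggtAAGATGGCGgtgctctttc
PHF20: gcgtcccggggGTCACGTGgtgcagagcac
OGT: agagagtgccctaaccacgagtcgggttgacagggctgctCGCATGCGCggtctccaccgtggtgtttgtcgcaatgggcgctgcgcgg
The stretch of KANSL3 holds 1 GC box and 21 CpG dinucleotides in 240 bases, and that of WDR5 holds 1 GC box and 8 CpG in 176 bases. The stretch of MCRS1 holds the ETS match, which begins 2 bp past the canonical TSS, and 7 CpG in 88 bases.

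KANSL3 (ENSG00000114982.19, minus strand) occupies chromosome 2 from 96593170 to 96642787. The KANSL3 protein is a scaffold subunit of the NSL complex. Its PHF20 peak extended from 96638324 to 96638735 and was 412 bp wide, the narrowest of the 5 and at percentile 28.1 of PHF20 peak widths. The peak lay upstream of the canonical TSS at 96638312, ending 12 bp short of it, with its centre 217 bp upstream. It covered 5 of the 18 annotated TSSs, at 96638324 to 96638378, from which 7 of 21 transcripts start. Of its bases, 357 lay in an intron of a longer transcript and 55 in exons. That longer transcript starts at 96642787, and KANSL3 had no peak when only its outermost TSS was used. The nearest PHF20L1 peak was 1.19 Mb from the gene, at FAHD2A.

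KANSL2 (ENSG00000139620.13, minus strand) lies on chromosome 12 from 48653211 to 48682238. It encodes another scaffold subunit. PHF20 was called from 48681772 to 48682231, a peak of 460 bp at percentile 34.1 that began 7 bp downstream of the canonical TSS. Its centre was 237 bp downstream, and all 460 bp were exonic in at least 1 transcript. The peak covered 4 of 13 TSSs, 13 to 80 bp downstream of the canonical one. The YY1 match shown above lay in it, with its first base 54 bp past the TSS. KANSL2 was the bound gene with the nearest PHF20L1 peak, 34.2 kb away at CCNT1, the gene of cyclin T1, a peak of 414 bp from 48716464 to 48716877.

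MCRS1 (ENSG00000187778.14, minus strand) spans chromosome 12 from 49556544 to 49568145. Its product, microspherule protein 1, is an NSL subunit. Its PHF20 peak spanned the canonical TSS, from 49567772 to 49568283 (512 bp, percentile 40.6), with its centre 115 bp downstream. It covered 10 of the 16 TSSs. The same peak covered 2 TSSs of PRPF40B, a splicing factor gene on the opposite strand that starts at 49568218 and 49568236, against 49568142 for the canonical TSS of MCRS1. The peak therefore cannot be given to either gene from its position. This was the only peak of the 5 that held the TSS of another protein-coding gene.

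WDR5 (ENSG00000196363.10, plus strand) spans chromosome 9 from 134135365 to 134159968. The WDR5 protein has WD40 repeats and links several chromatin complexes. The stretch called for PHF20 ran from 134135189 to 134135928 (740 bp, percentile 62.6). It did not reach the canonical TSS at 134136082 and ended 154 bp upstream of it. It covered instead the 2 upstream TSSs, at 134135365 and 134135377, where 2 of the 3 annotated transcripts start. It also covered both TSSs of WDR5-DT, a divergent long noncoding RNA gene on the minus strand, at 134135649 and 134135772, so the positions cannot assign this peak to either gene. The nearest PHF20L1 peak was 717 kb from the gene, at REXO4.

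PHF20L1 (ENSG00000129292.21, plus strand) lies on chromosome 8 from 132775358 to 132848807. Its PHF20 peak, from 132774674 to 132775979, was 1306 bp wide, at percentile 95.7 of all PHF20 peak widths and 95.3 of those at protein-coding promoters. It was the widest of the 5, and it spanned the canonical TSS with its centre 62 bp upstream. The peak covered 8 of 18 TSSs, and 10 of 20 transcripts start in it. Of its bases, 684 lay upstream of the gene, 288 in exons and 334 in introns. PHF20 was thus called at the gene of its homolog, while PHF20L1 was not called at its own gene, and the nearest PHF20L1 peak was 7.68 Mb away. Because the lists were made from unequal sets of libraries, this is not a like-for-like contrast of the proteins. Genes with wide PHF20 peaks often had a PHF20L1 peak as well. Of the 239 protein-coding genes with a PHF20 peak at least as wide as the one at PHF20L1, 136 also had a PHF20L1 peak (56.9%), against 134 of 1442 genes with widths like those of the other 4 NSL genes (9.29%) and 18.0% of all genes with a PHF20 peak. The lists hold no depth, and its part in peak width was not tested.

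**Figure D2:**
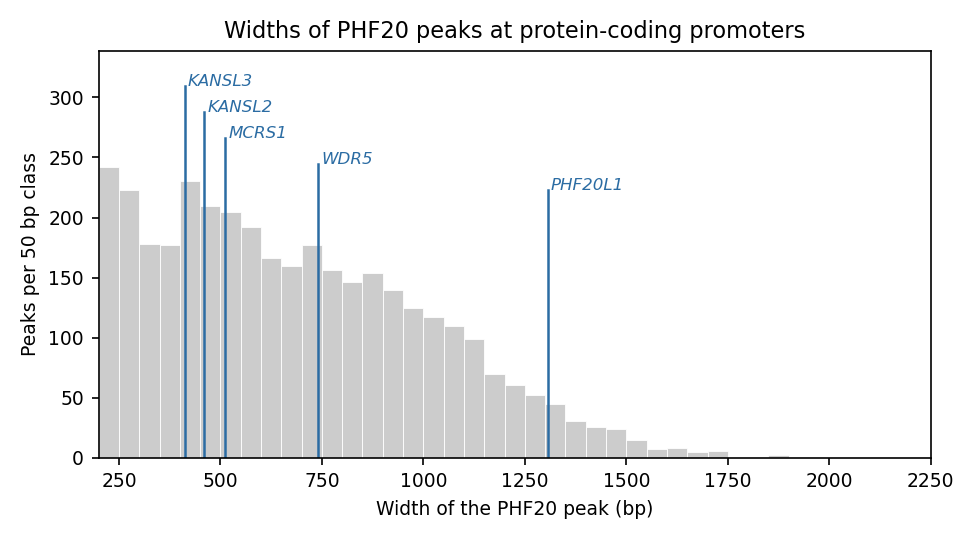
Widths of the 3562 PHF20 peaks at protein-coding promoters, in classes of 50 bp, with blue lines at the 5 peaks of NSL genes. KANSL3 (412 bp), KANSL2 (460 bp) and MCRS1 (512 bp) lie below the median of 635 bp, and WDR5 (740 bp) and PHF20L1 (1306 bp) above it.

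The median width of the 5 peaks was 512 bp. Over the 3562 PHF20 peaks at protein-coding promoters it was 635 bp, with quartiles at 416.2 and 920 bp. Only the peaks of MCRS1 and PHF20L1 contained the canonical TSS. The peaks of KANSL2 and KANSL3 ended within 12 bp of it, on opposite sides, and that of WDR5 lay over its upstream starts and those of WDR5-DT. Measured from the nearest annotated TSS of the NSL gene itself, the 5 centres lay 32 to 181 bp away. No such positions are given here for the other PHF20 peaks, so these values describe the 5 peaks alone. GC content in the peaks ranged from 58.2% at MCRS1 to 65.4% at WDR5. The ratio of observed to expected CpG ranged from 0.74 at WDR5 to 0.93 at KANSL3.

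PHF20 (ENSG00000025293.17, plus strand) covers 178397 bp on chromosome 20 from 35771974 to 35950370. It had no peak of either protein at any of its 14 TSSs. The nearest PHF20 peak lay 3.49 kb past the end of the gene, from 35953858 to 35954604, at the promoters of SCAND1 and CNBD2. The peak nearest to the PHF20 promoter itself was 29.1 kb from the canonical TSS. Its E-box match, shown above, begins 10 bp upstream of the canonical TSS. PHF20L1, which has a PHF20 peak, also holds CACGTGAC, as 2 overlapping matches on opposite strands that begin 73 and 71 bp upstream of its canonical TSS. The pair of homologous genes thus shared this element within 250 bp of the TSS and differed in the call.

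KAT8 (ENSG00000103510.20, plus strand) lies on chromosome 16 from 31114489 to 31131393. Neither protein had a peak at its 7 TSSs or in the gene. The nearest PHF20 peak was 39.7 kb away at ZNF646 and ZNF668, and at 1660 bp it was at percentile 99.6 of widths. The nearest PHF20L1 peak was 2.14 Mb away, at SPNS1. A match to ACTTCCGG began 168 bp downstream of the canonical TSS of KAT8.

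HCFC1 and OGT both lie on chromosome X. HCFC1 (ENSG00000172534.14, minus strand, 153947557 to 153971818) encodes host cell factor 1, a large coregulator that joins histone-modifying enzymes to promoters. The PHF20 peak nearest to it was 48.2 kb away at IRAK1, and with 205 bp it was at percentile 2.51 of widths. OGT (ENSG00000147162.15, plus strand, 71533087 to 71575892) was 464 kb from the nearest PHF20 peak, at SNX12. The nearest PHF20L1 peaks were 49.8 Mb from HCFC1 and 5998 kb from OGT. Few X-linked genes had a peak. PHF20 was called at 43 of 859 protein-coding genes of chromosome X (5.01%, Wilson 95% interval 3.74% to 6.67%), against 4105 of 19111 autosomal genes (21.5%, 20.9% to 22.1%). For PHF20L1 the numbers were 6 of 859 (0.698%, 0.321% to 1.52%) and 760 of 19111 (3.98%, 3.71% to 4.26%). Among genes whose promoters were as rich in CpG as those of most NSL genes (classes 7 to 10 of 10), PHF20 was called at 7.83% of 217 X-linked genes and 31.4% of 7783 autosomal genes. The share of calls on the X chromosome was compared after the positions of HCFC1 and OGT were known, and its part in their lack of a peak was not tested.

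**Figure D3:**
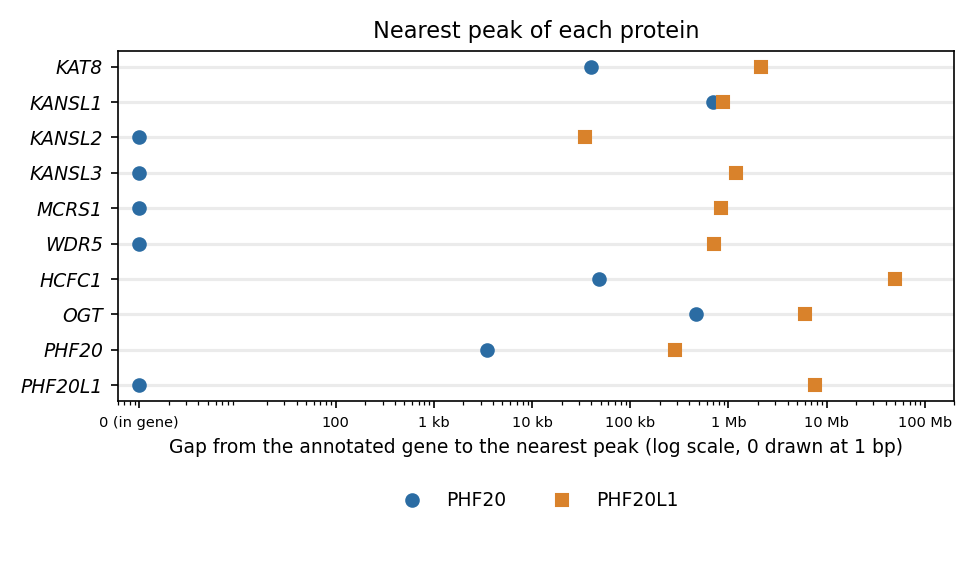
Gap in bp, on a log scale, from each annotated NSL gene to the nearest peak of PHF20 (blue circles) and PHF20L1 (orange squares), with a gap of 0 drawn at 1 bp. PHF20 circles sit at 0 for 5 genes and at 3.49 kb for PHF20, while the PHF20L1 squares run from 34.2 kb at KANSL2 to 49.8 Mb at HCFC1.

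KANSL1 (ENSG00000120071.15, minus strand) lies on chromosome 17 from 46029916 to 46225389 and encodes the scaffold subunit that binds KAT8. The nearest PHF20 peak was 697 kb away, at GOSR2, and the nearest PHF20L1 peak 882 kb away, at HEXIM1. How often its promoter sequence occurs in the genome was looked at as well. The reads were 50 bases long and only those with a unique position were kept, and hg38 carries 261 alternate sequences that repeat some regions. Whether the authors' index held them is not given in the sources used here. KANSL1 has 34 annotated TSSs, and only the promoter window of the canonical one was examined. In this window, all 1452 stretches of 50 bases (50-mers) occurred 1 time in hg38 without the alternates. When the alternates were counted, 0% did. The whole window had 3 near-identical copies in the alternates and 0 elsewhere. The 50 bases from 522 to 473 bp upstream of the canonical TSS (chr17:46193902-46193951, minus strand) are shown as an example of a read that would have a position on chromosome 17 and 3 more in the alternates.
KANSL1: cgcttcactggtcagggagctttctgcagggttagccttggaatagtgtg
Of the 653 protein-coding genes with promoters of this kind (at least 50% of 50-mers unique without the alternates and fewer with them), 1 had a PHF20 peak (0.153%, Wilson 95% interval 0.0270% to 0.862%), LRRC37A3, named after its call was seen. For PHF20L1 the count was 0, with a Wilson upper limit of 0.585% and a limit of 0.459% by 3 counts of 653. Of 18653 genes with unique promoters in both cases, 4139 had a PHF20 peak (22.2%) and 763 a PHF20L1 peak (4.09%). Both lists were thus nearly empty at the 653 promoters of this kind. These promoters were grouped by 50-mers alone and were not matched to KANSL1 in CpG content. The part of read mapping in the lack of a peak at KANSL1 was not tested. All 3 protein-coding genes with a canonical TSS within 250 kb of that of KANSL1 had under 50% unique 50-mers with the alternates counted, and none had a peak. The other 9 NSL genes had from 89.5% (KAT8) to 100% unique 50-mers with the alternates counted, and 5 of these 9 had a PHF20 peak.

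**Figure D4:**
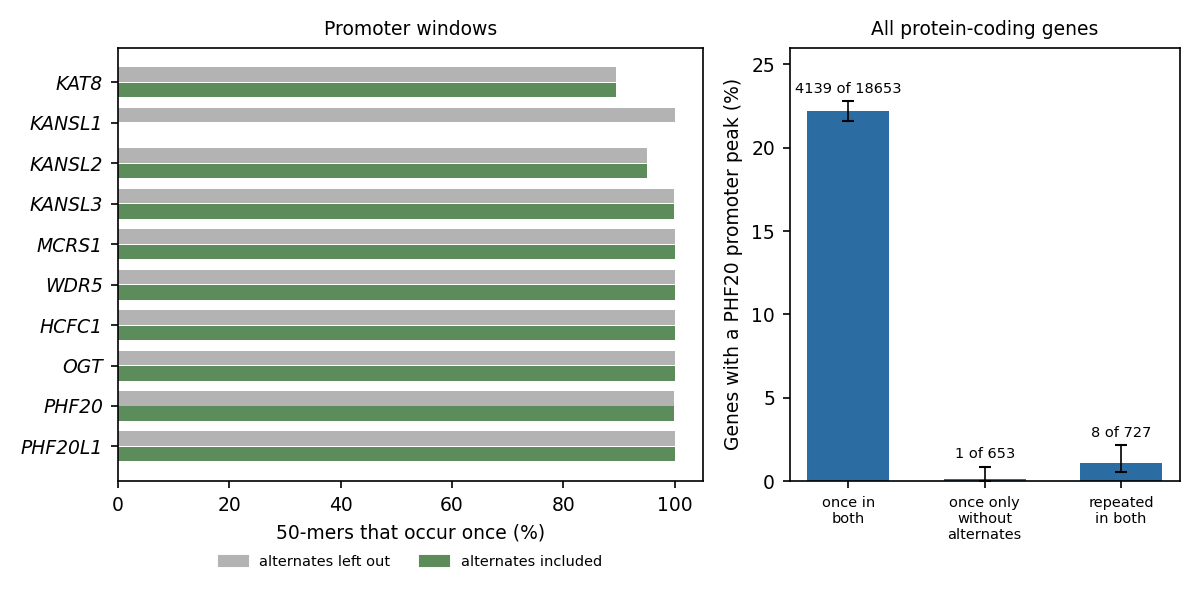
Left, percent of 50-mers in the promoter window of the canonical TSS of each NSL gene that occur 1 time in hg38, without (grey) and with (green) the alternate sequences. Right, percent of all protein-coding genes with a PHF20 peak when at least 50% of their promoter 50-mers are unique in both cases (22.2%), only without the alternates (0.153%) or in neither (8 of 727 genes), with Wilson 95% intervals as error bars. KANSL1 falls from 100% to 0% and is in the middle class.

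The promoters of the NSL genes other than MCRS1 were rich in CpG. Over the promoter window of the canonical TSS, the ratio of observed to expected CpG was 0.66 at MCRS1 and 0.98 at HCFC1, the lowest and highest of the 10. All protein-coding genes were sorted into 10 classes by this ratio. The 10 NSL genes fell in class 5 (MCRS1) and classes 7 to 10, and none in the 4 lowest, where PHF20 was called at 2.05% to 19.4% of genes. In classes 5 to 10 PHF20 was called at 25.9% to 31.6% of genes and PHF20L1 at 4.29% to 6.34%. The count of 5 NSL genes is thus to be read against this range rather than against 20.7% alone. The range is by CpG only. It leaves out the lower shares given above for X-linked genes and for promoters like that of KANSL1. The genes with and without a PHF20 peak overlapped in CpG content. The 3 in class 10, HCFC1, KANSL1 and OGT, were all without a peak, while 620 of the 2003 genes in that class had one. That share is not matched to these 3 genes in chromosome or in promoter uniqueness. HCFC1 and OGT are X-linked, and PHF20 was called at 7.83% of 217 X-linked genes in classes 7 to 10. KANSL1 is among the 653 genes with promoters unique only without the alternates, of which 1 had a PHF20 peak (0.153%).

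**Figure D5:**
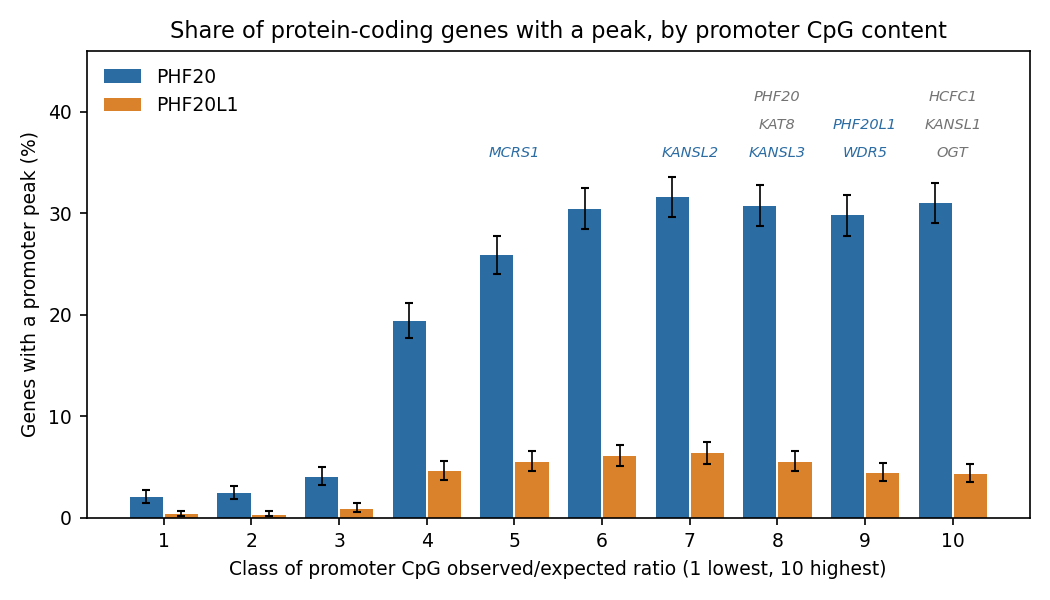
Percent of protein-coding genes with a promoter peak of PHF20 (blue) and PHF20L1 (orange) in 10 classes of about equal size by the observed/expected CpG ratio of the promoter, with Wilson 95% intervals as error bars. NSL genes are named above their class, in blue with and in grey without a PHF20 peak, and none is in classes 1 to 4.

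Short sequence elements were searched on both strands within 250 bp of the canonical TSS of each gene. ACTTCCGG was at KAT8 and MCRS1, CACGTGAC at PHF20 and PHF20L1, GCGCATGCG at OGT and MCRS1, and AAGATGGCG at KANSL2 and HCFC1. For each of these 4 elements, 1 of the genes had a PHF20 peak and the other did not. GGGCGG was at all 10 genes, and ATTGG, the CCAAT box, at 5. ACTACAATT, an element of ZNF143 and THAP11, was at none. Over all protein-coding promoters of the same length, 6.61% held ACTTCCGG, 3.72% CACGTGAC, 2.93% GCGCATGCG, 3.52% AAGATGGCG, 0.484% ACTACAATT, 69.5% GGGCGG and 43.5% ATTGG. Of the 1325 promoters with ACTTCCGG, 54.8% had a PHF20 peak (Wilson 95% interval 52.1% to 57.5%) and 13.7% a PHF20L1 peak. The 705 promoters with AAGATGGCG had one at 42.8% and 6.52%, the 745 with CACGTGAC at 39.3% and 10.2%, and the 586 with GCGCATGCG at 30.4% and 3.92%. For the elements most common at NSL genes the shares were nearer to those of all genes, at 24.7% and 4.21% for the 13929 promoters with GGGCGG and 19.1% and 3.25% for the 8712 with ATTGG. The 97 promoters with ACTACAATT had 31 with a PHF20 peak and 3 with a PHF20L1 peak. A match is a string of letters and not a measured site. GCGCATGCG nearly reads the same on both strands, and the elements overlap in part with CpG content.

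HCFC1 stood apart in AAGATGGCG. Within 1500 bp on each side of its canonical TSS the element occurred 7 times, 6 of them on the strand of the gene. No other of the 20033 protein-coding genes had as many, and 2 of the matches lay within 250 bp of the TSS. This window is wider than the 250 bp used above. No such ranking is given for the other elements or the other NSL genes. HCFC1 had no peak of either protein.

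Genes of related complexes were compared by the same rule. Of 7 genes of the MSL complex and the MYST acetyltransferases, the family of KAT8, 2 had a PHF20 peak (28.6%) and 1 a PHF20L1 peak. KAT5 had both, 612 bp and 373 bp wide. KAT6B, named after its value was seen, had a PHF20 peak of 200 bp, the lowest width in the PHF20 list. MSL1, MSL2, MSL3, KAT6A and KAT7 had no PHF20 peak. The H3K4 methyltransferase complexes share WDR5, and some of them also HCFC1, with NSL. Of 11 genes of these complexes, 5 had a PHF20 peak (45.5%) and 2 a PHF20L1 peak. The 2 were KMT2A, with a PHF20 peak of 291 bp and a PHF20L1 peak of 357 bp, and RBBP5, with 1004 bp and 330 bp. KMT2D, SETD1A and ASH2L, named after their calls were seen, had PHF20 peaks alone. KMT2B, KMT2C, SETD1B, DPY30, CXXC1 and MEN1 had no PHF20 peak. Of 3 paralogues of NSL genes, WDR5B, named after its value was seen, had a PHF20 peak of 1121 bp, and KANSL1L and HCFC2 had none. Over all protein-coding genes the shares were 20.7% for PHF20 and 3.82% for PHF20L1. In CpG classes 5 to 10, where all the listed genes lie, they were 25.9% to 31.6% and 4.29% to 6.34%. The comparison lists are short, and the differences between them and the NSL genes were not tested.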

How the data were processed

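HA ChIP-Seq of PHF20 and PHF20L1 in U2OS cells was analysed, in 8 libraries. The authors aligned reads of 50 bases to hg38 with Bowtie 1.1.2, discarded reads without a unique position and duplicates, ran MACS2 2.2.7.1 against input, removed blacklisted regions and combined the replicates. Their methods state that 3 replicates per protein were sequenced and that 1 of PHF20 failed in peak calling and was dropped. The labels give 2 PHF20 ChIP libraries. The deposited values are peak positions in bp with no score. Positions are counted from 1. Peaks were compared with GENCODE release 44, a later release than theirs, with the Ensembl canonical transcript as reference TSS. Shares have Wilson 95% intervals. No test across genes was made.

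All 50-mers of the promoter windows of canonical TSSs were counted in hg38, and copies at 95% identity over 80% of a window were searched with minimap2 2.31-r1302. Python 3.11.15, numpy 2.4.6, scipy 1.17.1, pysam 0.24.0, numba 0.67.0 and matplotlib 3.10.9 were used. On simulated peaks 300 of 300 planted promoter peaks among 2000 genes were found. The table of RefSeq (GRCh38.p14) promoters used here matched 7 of the 10 genes, and no sequence is printed for the other 3, PHF20L1, KAT8 and HCFC1.

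The genes, lists and elements were chosen with earlier results of these data known. Genes named are the 10 NSL genes, genes whose TSS lies in their peaks or whose promoters are at the nearest peak, and, in the comparison lists, genes with a PHF20L1 peak or without a PHF20 peak. RBM39, ROMO1, NFS1, SETD1A, LRRC37A3, KAT6B, KMT2D, ASH2L and WDR5B are outside this rule and were named after their calls were seen. Genes with the most similar pair of widths were not named because no NSL gene had both peaks. The classes by unique 50-mers, by chromosome, by CpG and by peak width were chosen after the data were seen.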

Additional observations from a re-analysis of the deposited data

How the results depend on the processing

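The number of NSL genes with a PHF20 promoter peak was 5 under 8 of the 10 alternatives and 4 with only the outermost TSS of a gene, where KANSL3 was lost. Among peaks not narrower than their list's median it was 2, PHF20L1 and WDR5, by construction since the other 3 peaks are narrower. These 8 include the restriction to genes with unique 50-mers, added after the data were seen. PHF20L1 peaks, and peaks of both proteins, were at 0 NSL genes under all alternatives run. The share of all protein-coding genes ranged from 12.1% to 22.0% for PHF20 and from 2.11% to 4.19% for PHF20L1, and among genes with unique 50-mers it was 22.2% and 4.09%. Width percentiles among peaks at protein-coding promoters were 24.6 for KANSL3, 30.7 for KANSL2, 36.9 for MCRS1, 59.7 for WDR5 and 95.3 for PHF20L1. Counts of elements in the 5 peaks were equal within 250 bp of the peak centre and in whole peaks. Without scores, no stricter peak threshold could be applied, and peak width stood in for it.

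No paired analysis was possible because the authors merged replicates before deposit, and leaving out a replicate was not possible either. The count of 5 rests on lists without replicate values.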

Other observations

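The neighbourhoods of the NSL genes differed in how many other genes had a peak. Around PHF20, 8 of the 11 other protein-coding genes with a canonical TSS within 250 kb had a PHF20 peak, among them RBM39, ROMO1 and NFS1, while PHF20 had none. Around KAT8 it was 4 of 22, including SETD1A, a methyltransferase that works with WDR5. These are counts of genes and not of peaks. SCAND1 and CNBD2 near PHF20 shared 1 peak, as did ZNF646 and ZNF668 near KAT8. Around PHF20L1 and WDR5, both with a PHF20 peak, none of the 3 and 4 neighbours had one. Around the other bound genes it was 2 of 13 for KANSL2, 2 of 9 for KANSL3 and 1 of 9 for MCRS1, and around KANSL1 0 of 3, against 20.7% of all protein-coding genes. Around OGT it was 0 of 8 and around HCFC1 1 of 19. The 1 neighbour counted for MCRS1 was PRPF40B, through the same peak that was given for MCRS1 itself. Within these distances of the 10 genes, CCNT1 near KANSL2 was the 1 gene with a PHF20L1 peak. These values were looked at after the calls were known and were not tested.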
